A study of Mus musculus with 141 samples.

Results

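Pulmonary surfactant genes were followed through single cells of mouse lung. The 8 genes were *Sftpa1*, *Sftpb*, *Sftpc* and *Sftpd*, which encode surfactant proteins A, B, C and D, and *Abca3*, *Lamp3*, *Napsa* and *Slc34a2*, which encode proteins of the lamellar body or of the AT2 cell surface. They were chosen by name, and all 8 are among the 17136 genes counted in each cell. All cells came from 1 male mouse of 4 months, of strain 129SV per the labels and 129S6/SvEvTac per the study's methods, with the genotype *ACID;R26tdTomato*, in which Cre made from the *Aqp5* locus switches on the reporter tdTomato in cells that express or once expressed *Aqp5*. The mouse was heterozygous for both alleles, and there was no control mouse and no treatment. Cells were sorted as CD31- CD45- E-cadherin+ tdTomato+, that is, as epithelial cells with the reporter and without endothelial or leukocyte surface markers, and were captured on a C1 chip with columns and rows of sites. The smallest library held 91402 reads, the median one 419970 and the largest 2170760, and no pair of the 9870 possible pairs of cells held identical counts.

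Surfactant is the film of lipid and protein that lowers surface tension in the alveolus. AT2 cells make it, store its lipids and its hydrophobic proteins in lamellar bodies, and release them by exocytosis. Surfactant proteins A and D are collectins that are secreted and bind microbes, and in rodent airways club cells are known as a further source of surfactant proteins A, B and D, whereas surfactant protein C is known as the product of AT2 cells alone.

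The labels call every cell an AT1 cell, but the data did not follow this for all of them. With the limits used here, 64 cells (45.4%) had at least 5000 CPM (reads of a gene scaled to the total reads of a cell or class) of the AT1 gene *Ager* and are called AT1-like, and 27 cells (19.1%) had at least 8000 CPM of *Sftpc* and are called AT2-like. No cell passed both limits. The other 50 cells were named where at least 50% of the markers of exactly 1 list exceeded 100 CPM, which gave 14 club-like, 16 ciliated-like and 7 basal-like cells, 1 cell high in the club and the ciliated list, and 12 unnamed cells. None of these lists holds any of the 8 genes.

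A class made by a limit is a range of values and not a cell type. For *Sftpc*, the highest cells outside the limit had 4970 CPM (basal-like), 6694 CPM (unnamed) and 7774 CPM (club-like), and the lowest inside had 8718, 13859 and 25437 CPM. For *Ager*, the nearest cells outside had 2030.3, 2527 and 4696 CPM and the nearest inside 5678, 7681 and 9335 CPM. Within 2-fold of a limit lay 6 cells for *Sftpc* and 5 for *Ager*. The cell with 4696 CPM of *Ager* is also the one with 8718 CPM of *Sftpc*, and 6 of the 12 AT1 markers exceeded 100 CPM in it.

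The names were checked against markers other than the 8 genes. In AT2-like cells all 10 AT2 markers exceeded 100 CPM in the summed counts, with a summed level of 31186 CPM led by *Lyz2*, a lysozyme, at 12652 CPM. At least 50% of that list exceeded 100 CPM in 20 of the 27 cells. In AT1-like cells the AT2 list summed to 123.6 CPM and the AT1 list to 22361 CPM. In the club-like cells the AT2 list summed to 3430 CPM, and 3 of its 10 markers exceeded 100 CPM, *Lyz2* with 2409 CPM, *Cxcl15* with 782 CPM and *S100g* with 121.7 CPM. The medians of the 14 cells were 8.91, 122.7 and 0 CPM in the same order, so the sums of *Lyz2* and *S100g* were carried by a minority of these cells. At least 50% of the club markers also exceeded 100 CPM in 2 AT2-like and 2 AT1-like cells. Of the 8 macrophage markers 2 are in the counts, *Csf1r* and *Ptprc*, and the larger, *Csf1r*, was at 0.276 CPM in AT2-like and 398 CPM in AT1-like cells. In AT1-like cells *Csf1r* gave 398.31 of the 398.35 CPM of the 2 genes, so *Ptprc* was almost absent. The fibroblast list summed to 0.0919 CPM, the endothelial list to 0.276 CPM and the single dendritic gene counted, *Fscn1*, to 0 in AT2-like cells, and in club-like cells they summed to 0, 45.9 CPM (nearly all *Kdr*) and 0. The part of such mixed cells in the results was not tested.

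In AT2-like cells the 8 genes together accounted for 17.5% of the reads, with a lowest cell of 1.68%, a median of 13.2% and a highest cell of 28.8%. The share was 0.676% in club-like, 0.179% in basal-like, 0.0971% in unnamed, 0.0669% in AT1-like and 0.0256% in ciliated-like cells. AT2-like cells therefore held 94.3% of the 2018434 reads of these genes, while *Sftpc*, with 12.7% of the reads of AT2-like cells, had at least 1 read in every cell of the series.

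Promoter windows were found for 5 of the 8 genes, and not for *Sftpc*, *Sftpd* and *Napsa*. Sequence is shown for 4 of the 5, chosen because these 4 differ in the airway cells described below. *Sftpa1* and *Sftpb* had high values in many club-like cells, and *Lamp3* and *Slc34a2* exceeded 100 CPM in at most 1 club-like cell. The windows run from 250 bases before to 50 after the RefSeq start on GRCm38.p6, 5′ to 3′ on the strand of the gene, at chr14:41131538-41131837 (plus strand) for *Sftpa1*, chr6:72304360-72304659 (plus) for *Sftpb*, chr16:19706316-19706615 (minus) for *Lamp3* and chr5:53049103-53049402 (plus) for *Slc34a2*. Capitals mark matches on either strand to GCNCTNNAG, a form of the motif bound by NKX2-1, the lung transcription factor.
Sftpa1: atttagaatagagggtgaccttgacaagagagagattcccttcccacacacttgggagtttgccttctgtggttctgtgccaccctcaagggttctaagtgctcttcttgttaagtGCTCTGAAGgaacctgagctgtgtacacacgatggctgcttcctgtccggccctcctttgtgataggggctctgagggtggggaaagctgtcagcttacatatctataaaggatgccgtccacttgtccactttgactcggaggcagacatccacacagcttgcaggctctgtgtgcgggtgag
Sftpb: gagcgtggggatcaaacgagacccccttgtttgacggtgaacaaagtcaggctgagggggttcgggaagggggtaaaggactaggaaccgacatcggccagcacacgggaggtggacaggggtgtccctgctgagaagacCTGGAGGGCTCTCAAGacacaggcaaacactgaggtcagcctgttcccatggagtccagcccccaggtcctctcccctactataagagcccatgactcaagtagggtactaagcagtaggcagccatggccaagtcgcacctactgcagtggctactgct
Lamp3: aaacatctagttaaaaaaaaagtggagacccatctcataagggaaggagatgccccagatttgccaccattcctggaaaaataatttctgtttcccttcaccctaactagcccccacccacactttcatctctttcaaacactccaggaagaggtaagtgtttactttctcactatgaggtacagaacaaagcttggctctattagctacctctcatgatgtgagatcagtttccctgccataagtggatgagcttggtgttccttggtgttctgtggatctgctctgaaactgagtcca
Slc34a2: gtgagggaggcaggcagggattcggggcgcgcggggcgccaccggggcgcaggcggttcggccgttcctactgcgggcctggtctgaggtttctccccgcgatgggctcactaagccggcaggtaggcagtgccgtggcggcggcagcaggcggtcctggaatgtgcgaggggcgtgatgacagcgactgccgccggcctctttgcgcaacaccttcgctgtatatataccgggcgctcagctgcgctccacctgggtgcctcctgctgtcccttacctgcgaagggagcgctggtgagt
The *Sftpa1* window holds 1 match and a TATAAA beginning 30 bases before the start. The *Sftpb* window holds 2 matches that overlap, printed as 1 run of capitals, and 1 match to TGTTTNC, a form of the FOXA motif. The *Lamp3* window holds 2 matches to TGTTTNC and none to GCNCTNNAG, and those of *Slc34a2* and *Abca3* hold neither. *Abca3*, whose window is not printed, was also present in club-like cells, at 291 CPM against 1.58 CPM in ciliated-like cells. Of all 32851 mouse promoter windows of this length, 17.5% hold GCNCTNNAG, 20.5% TGTTTNC, 13.6% TATAAA and 11.5% TTNNGNAAT, a form of the C/EBP motif that none of the 5 windows contains, all on both strands. A match is a description of the letters and not a binding site.

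In GENCODE vM21 on GRCm38, *Sftpa1* (chr14:41131782-41136452), *Sftpd* (chr14:41172214-41185149) and *Sftpc* (chr14:70520949-70524081) lie on chromosome 14, and the first pair lies close together. *Sftpb* is at chr6:72304610-72314371, *Abca3* at chr17:24351950-24410201, *Lamp3* at chr16:19653378-19706375, *Napsa* at chr7:44572380-44586862 and *Slc34a2* at chr5:53038081-53071664. The *Slc34a2* window above thus lies inside the gene as annotated here, and no window at its outermost start was searched. The strand setting of the counting is not given in the sources used here. *Slc34a2* overlaps the antisense gene *Gm17182*, which had 233 reads in all cells, *Napsa* overlaps *Gm15396* with 19 reads, and *Abca3* overlaps *D330041H03Rik* with 4 reads, so reads of these pairs cannot be told apart with certainty.

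**Figure D1:**
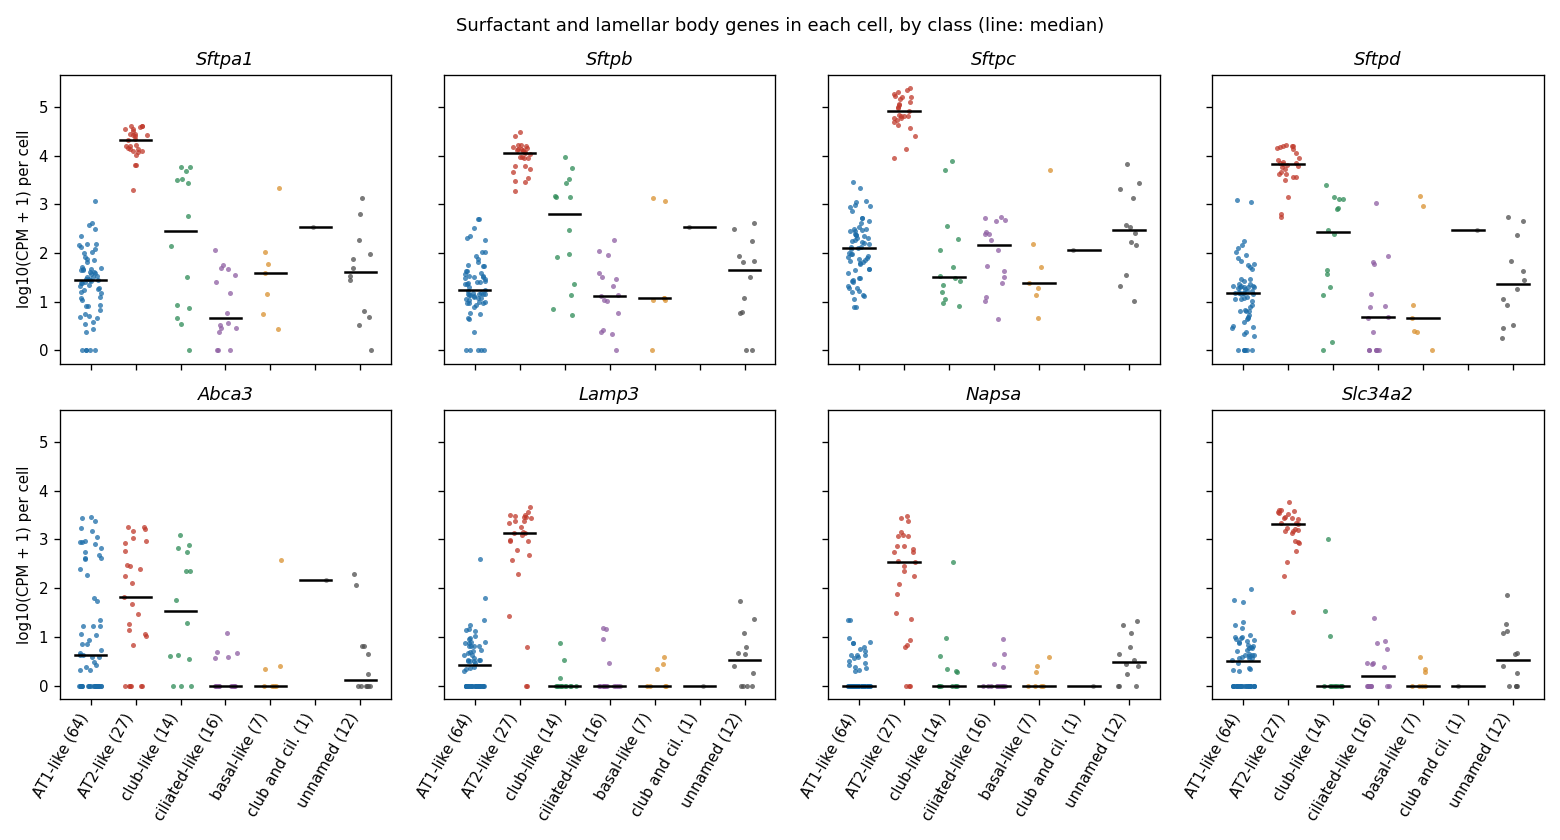
Level of each gene in every cell, as log10(CPM + 1), by class (number of cells in parentheses), where a point is a cell and a line the median. AT2-like cells lie apart from AT1-like cells for *Sftpa1* and *Sftpb*, with lowest AT2-like values of 1947 and 1842 CPM against highest AT1-like values of 1173 and 499 CPM, while for *Abca3* the classes overlap almost throughout.

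Of the secreted collectins, *Sftpa1* ranged in AT2-like cells from 1947 CPM through a median of 21070.1 CPM to 40599 CPM, and in AT1-like cells from 0 through 27.1 to 1173 CPM. The lowest AT2-like cell was thus above the highest AT1-like cell. *Sftpd* ranged in AT2-like cells from 546 through 6672 to 16582 CPM, and in AT1-like cells from 0 through 13.9 to 1207 CPM. Here the ranges overlapped, and 1 AT1-like cell gave 40.5% of the *Sftpd* reads of its class. In summed counts *Sftpa1* reached 25048 CPM (24954 to 25143) in AT2-like cells against 63.3 CPM (60.5 to 66.1) in AT1-like cells, 396-fold higher (379 to 414). *Sftpd* was 7415 CPM (7364 to 7466) and 63.3 CPM (60.5 to 66.1), 117.2-fold higher (112.1 to 122.6). Intervals in parentheses are exact 95% intervals of the counts. They cover counting error only, since reads copied by PCR are not independent molecules, and cells of 1 mouse are not replicates, so no test was made.

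Of the hydrophobic proteins, *Sftpb*, needed to pack surfactant lipids, ranged in AT2-like cells from 1842 through 11434 to 30020.2 CPM and in AT1-like cells from 0 through 16.2 to 499 CPM. These ranges did not overlap, and the summed level was 10637 CPM (10576 to 10699) against 40.7 CPM (38.5 to 42.96), a 262-fold difference (247 to 277). *Sftpc* ranged from 8718 through 83214 to 243977 CPM in AT2-like cells and from 6.75 through 124.3 to 2847 CPM in AT1-like cells. Its summed level was 126838 CPM against 250.1 CPM (244.6 to 255.7), a separation that the limit on *Sftpc* itself sets.

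Among the lamellar body and surface genes, *Slc34a2*, a sodium phosphate cotransporter, ranged from 31.5 through 2040 to 5826 CPM in AT2-like cells, and its highest AT1-like cell had 97.02 CPM. It exceeded 100 CPM in 26 of 27 AT2-like and in 0 of 64 AT1-like cells (0% to 5.60%). *Lamp3*, a lamellar body membrane protein, ranged from 0 through 1356 to 4587 CPM in AT2-like cells and reached 401 CPM in 1 AT1-like cell, which gave 48.8% of the reads of that class. *Napsa*, an aspartic protease that processes surfactant protein B, ranged from 0 through 341 to 3061 CPM in AT2-like cells, and no AT1-like cell exceeded 21.6 CPM. The lowest AT2-like cells of *Lamp3* and *Napsa* lay within the AT1-like range. The summed levels were 348-fold (299 to 407), 233-fold (206 to 265) and 606-fold (451 to 835) higher in AT2-like than in AT1-like cells for *Slc34a2*, *Lamp3* and *Napsa*.

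*Abca3*, the transporter that carries phospholipid into lamellar bodies, did not follow the others. It ranged in AT2-like cells from 0 through 65.5 to 1783 CPM and in AT1-like cells from 0 through 3.26 to 2835 CPM, so that its highest cell was AT1-like. More than 100 CPM was found in 13 of 27 AT2-like cells (28.7% to 68.1%) and 18 of 64 AT1-like cells (17.6% to 40.8%), and in 0 of 16 ciliated-like cells (0% to 20.6%), whose median depth of 433774 reads was close to the 426602 reads of AT1-like cells. At least 1 read was present in 40 AT1-like cells, and in 30 after each cell had been thinned to 90000 reads. The summed level was 516 CPM (502 to 529) among the AT2-like against 237 CPM (231 to 242) among the AT1-like cells, a 2.18-fold difference (2.10 to 2.26). Of the 7 genes other than *Sftpc*, 6 were therefore at least 4-fold higher in AT2-like cells, where 16.6% of the 12492 genes compared were, and the median log2 ratio of the 7 genes was 8.03 against -0.83 over all genes.

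AT2-like cells differed from each other in the ratios of the surfactant genes, while *Sftpc* had the most reads of the 4 in each of them. Over the 27 cells, *Sftpa1* followed *Sftpc* (Pearson r = 0.77, Spearman rho = 0.66, on log2(CPM + 10)), whereas *Sftpb* did not (r = 0.17, rho = -0.21) and *Sftpd* had r between -0.18 and 0.23 with every other gene of the 8. *Sftpb* reads per 100 *Sftpc* reads ran from 1.55 in 1 cell to 56.001 in another. By Pearson r the highest pairs after *Sftpa1* with *Sftpc* were *Sftpc* with *Napsa* (r = 0.58, rho = 0.50) and *Sftpb* with *Slc34a2* (r = 0.57, rho = 0.31). These are descriptions, and the cells share 1 mouse, 1 chip and differences in depth.

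The share of mitochondrial reads moved with these levels. The study kept cells with a share below 0.15, which 92 cells of the series and 11 of the 27 AT2-like cells met. In those 11 cells *Sftpc* was 167612 CPM, *Sftpa1* 30763 CPM, *Sftpb* 8863 CPM and *Slc34a2* 1431 CPM. In the other 16 cells *Sftpc* was 66798 CPM, *Sftpa1* 16634 CPM, *Sftpb* 13250 CPM and *Slc34a2* 2566 CPM. The cells with the larger mitochondrial share thus had less *Sftpc* and *Sftpa1* and more *Sftpb* and *Slc34a2*. They also had less *Lamp3* (1615 against 2077 CPM), *Napsa* (737 against 939 CPM), *Abca3* (338 against 637 CPM) and *Sftpd* (7213 against 7552 CPM), and their median depth was 244845 against 413806 reads. The part of RNA quality in this was not tested.

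**Figure D2:**
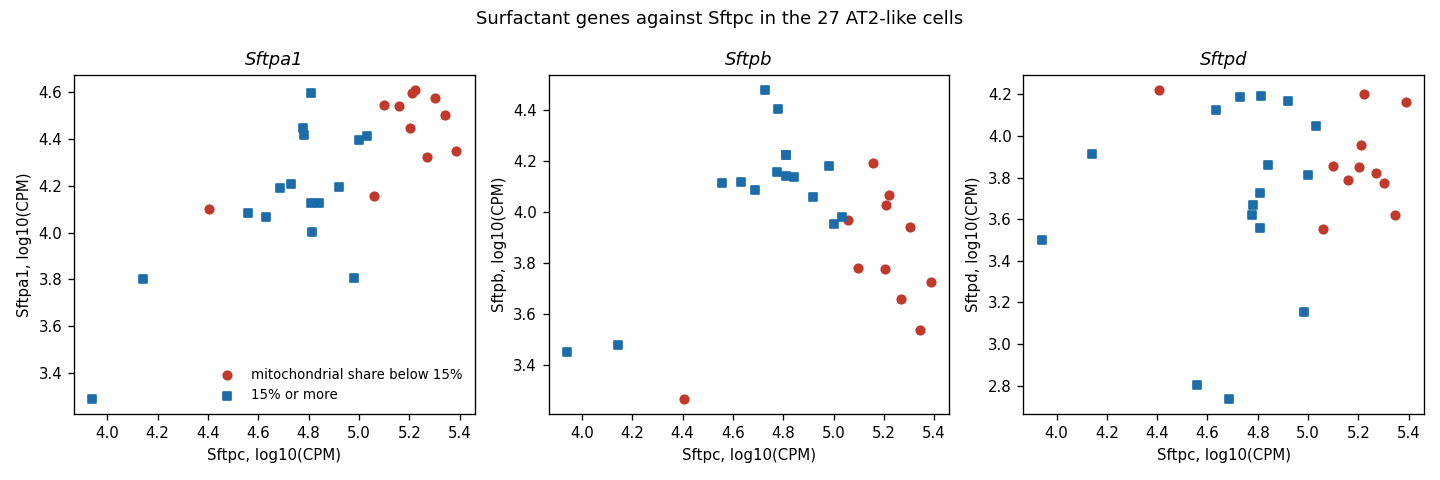
*Sftpa1*, *Sftpb* and *Sftpd* against *Sftpc* in the 27 AT2-like cells, each as log10(CPM), with cells of a mitochondrial read share below 15% as circles and the others as squares. *Sftpa1* rises along *Sftpc* (r = 0.77), while the cells with the most *Sftpc* do not have the most *Sftpb* (r = 0.17).

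*Sftpa1*, *Sftpb* and *Sftpd* reached the club-like cells, which make the airway secretory protein *Scgb1a1*, here at 287427 CPM. *Sftpa1* ranged in the 14 club-like cells from 0 through 359.8 to 5829 CPM, *Sftpb* from 4.22 through 838 to 9334 CPM, and *Sftpd* from 0 through 271 to 2499.8 CPM. Each exceeded 100 CPM in 8 of the 14 cells. The upper cells of *Sftpa1* and *Sftpb* lay within the AT2-like range and the lower ones within the AT1-like range. In summed counts *Sftpa1* was 2083 CPM (2056 to 2110.0), *Sftpb* 1862 CPM (1837 to 1888) and *Sftpd* 697 CPM (682 to 713), which was 32.9-fold, 45.8-fold and 11.02-fold higher than in AT1-like cells and 12.03-fold, 5.71-fold and 10.6-fold below AT2-like cells.

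The ciliated-like cells did not share these levels. *Sftpa1* was at 12.4 CPM with 1 of 16 cells above 100 CPM, and *Sftpb* at 20.5 CPM with 2 of 16. *Sftpd* was at 81.6 CPM, of which 90.5% came from 1 cell of 1062 CPM. Club-like cells were thus 168-fold, 90.96-fold and 8.54-fold higher for *Sftpa1*, *Sftpb* and *Sftpd*. The median depth was 806448 reads in club-like and 433774 reads in ciliated-like cells, a gap that does not enter a CPM but does enter shares of cells with a read.

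*Sftpc*, *Lamp3*, *Napsa* and *Slc34a2* were not spread over club-like cells in this way. For *Sftpc* the limit sets part of this, since cells with at least 8000 CPM were called AT2-like before the club list was applied. The club list was also met by 2 AT2-like cells, which had 48591 and 159731 CPM of *Sftpc*. In club-like cells *Sftpc* ranged from 7.30 through 30.7 to 7774 CPM, and 86.9% of its reads came from 1 cell. *Lamp3* had 4 reads in the whole class. *Napsa* and *Slc34a2* exceeded 100 CPM in the same single cell, at column 15 and row 24, which had 347 and 1039 CPM and gave 87.2% and 92.96% of the reads of the class. That cell also had 4947 CPM of *Sftpc*, 4706 CPM of *Sftpa1*, 5447 CPM of *Sftpb* and 402564 CPM of *Scgb1a1*. However, only 2 of the 10 AT2 markers exceeded 100 CPM in it, and *Lamp3* was at 2.3 CPM. Club genes and some of the AT2 genes, but not most AT2 markers, were thus high at this capture site. Whether it held 1 cell or more was not tested, and no doublet caller was run, the sites having been checked by microscopy in the study.

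Of the 8 genes, 6 were at least 4-fold higher in club-like than in AT1-like cells, where 16.1% of 12478 genes were. *Sftpc* is among the 6, and its limit bounds the club-like class. Of the 7 genes other than *Sftpc*, 5 were. Without the 2 club-like cells that had the most *Sftpc*, 3 of 8 remained past that fold, namely *Sftpa1* (2336 CPM, 36.9-fold), *Sftpb* (2083 CPM, 51.2-fold) and *Sftpd* (842 CPM, 13.3-fold). *Sftpc* was then 47.6 CPM, 0.190 times the AT1-like level, and *Napsa* and *Slc34a2* were 0.337 and 0.747 times it. The choice of these cells by itself lowers *Sftpc*, and AT1-like cells were not trimmed likewise, so nothing is concluded from its value. Against ciliated-like cells 7 of the 8, and 6 of the 7 other than *Sftpc*, were at least 4-fold higher with all club-like cells. The share over all genes was 25.8% of 10791. Without those 2 cells 4 of the 8 were, and no share over all genes was computed without them in either comparison. The 4 were *Sftpa1*, *Sftpb*, *Sftpd* and *Abca3*, and *Sftpc* was then 0.351 times the ciliated-like level of 135.6 CPM. Here too the choice of cells by itself lowers *Sftpc*, and the ciliated-like class was left whole, so nothing is concluded from that value.

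*Abca3* was present in club-like cells too, from 0 through 37.1 to 1220.5 CPM, above 100 CPM in 6 of 14 cells. Its summed level of 291 CPM (281 to 301) was 1.23 times that of AT1-like cells and 183 times that of ciliated-like cells, which had 1.58 CPM. The direction against AT1-like cells was not firm, since the ratio was 0.861 without the 2 club-like cells with the most *Sftpc*, and its log2 value was -0.18 as a mean over cells and -0.24 at 90000 reads per cell.

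Club-like cells differed in which of *Sftpa1*, *Sftpb* and *Sftpd* they carried. Above 1000 CPM were *Sftpa1* in 6 cells, *Sftpb* in 7 and *Sftpd* in 4, and both *Sftpa1* and *Sftpb* in 2. At least 1 of the 3 genes exceeded 1000 CPM in 11 of 14 cells, exactly 1 in 6 cells and all 3 in 1 cell, the one at column 15. Of the 27 AT2-like cells, 25 exceeded 1000 CPM in all 3 genes and the other 2 in a pair of them.

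Some single cells were high for *Sftpa1* or *Sftpb* and not for the other. The cell at column 3, row 23 had 5779 CPM of *Sftpa1* and 4.2 CPM of *Sftpb*, and that at column 9, row 4 had 2789 and 12.5 CPM. The cell at column 1, row 37 had 3.7 CPM of *Sftpa1* and 9334 CPM of *Sftpb*, and that at column 3, row 12 had 0 and 2752 CPM. Over the 14 cells the levels of *Sftpa1* and *Sftpb* had r = -0.44 and rho = -0.31 on log2(CPM + 10). The 2 cells with both were at column 3, row 7 (5829 and 3293 CPM) and at column 15, row 24.

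**Figure D3:**
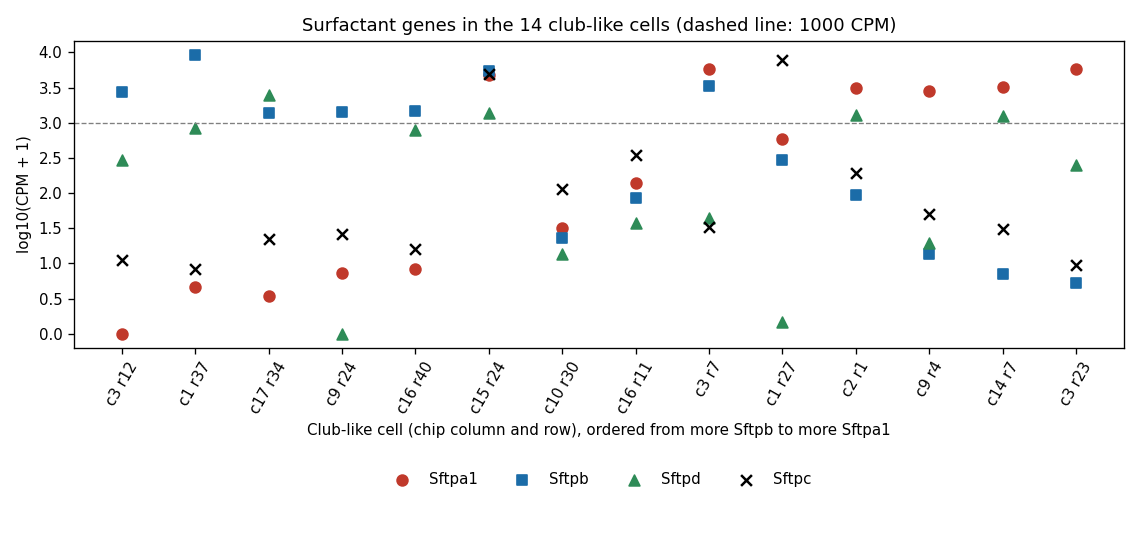
*Sftpa1*, *Sftpb*, *Sftpd* and *Sftpc* in each of the 14 club-like cells, as log10(CPM + 1), ordered from cells with more *Sftpb* to cells with more *Sftpa1*, with the dashed line at 1000 CPM. *Sftpa1* lies above the line in 6 cells and *Sftpb* in 7, both do so in 2, and *Sftpc* lies above it in 2.

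The 7 basal-like cells had isolated high values. *Sftpa1* was 449 CPM in the summed counts, of which 94.1% came from 1 cell of 2156 CPM, and *Sftpb* was 278 CPM with cells of 1335 and 1141 CPM. *Sftpc* was 649 CPM, of which 95.2% came from the cell of 4970 CPM. *Sftpd* was 373 CPM, with cells of 1498 and 938 CPM. Club markers were present in these cells too, as the summed club list was 14193 CPM, led by *Cyp2f2* at 12287 CPM, with 5 of its 10 genes over 100 CPM, against 7963 CPM for the basal list. Their part in these values was not tested. Above 1000 CPM of exactly 1 of *Sftpa1*, *Sftpb* and *Sftpd* were 4 of the 7 basal-like cells, 1 of the 16 ciliated-like and 3 of the 64 AT1-like cells.

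The low *Sftpc* of cells outside the AT2-like class was compared by chip column, to ask whether it moved with the AT2-like cells captured in the same column. AT2-like cells were in 14 of the 20 columns. In the 48 AT1-like cells of those columns the median of *Sftpc* was 163 CPM, and in the 16 AT1-like cells of the other columns 60.97 CPM, 2.67 times lower. The ratio of summed counts was 2.15 (2.03 to 2.29), from 298 and 138.4 CPM. It was 3.61 without the cell with the most *Sftpc* reads on each side, which gave 13.7% and 51.4% of those reads. Among 1108 genes with reads in at least 50% of the cells of each side, 16.9% had a median at least 2-fold higher in columns with an AT2-like cell, and the median ratio over all 1108 genes was 0.779. In summed counts, where few cells decide many genes, 41.1% of 11178 genes were at least 2-fold higher.

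The other AT2 genes moved in part with the column. The medians of AT1-like cells with and without an AT2-like cell in the column were 31.8 and 10.6 CPM for *Sftpa1*, 15.5 and 3.20 CPM for *Sftpd*, and 22.1 and 13.1 CPM for *Sftpb*. *Slc34a2* had medians of 2.91 and 0 CPM, *Lamp3* of 1.66 and 1.70 CPM, and *Napsa* of 0 in both. The summed ratios of *Slc34a2* and *Napsa* were 2.36 and 1.67. That of *Lamp3* was 0.277, from 4.55 and 16.4 CPM, with a log2 ratio of -0.28 without its top cell. In summed counts *Sftpa1* was 2.89-fold higher with an AT2-like cell in the column, but *Sftpb* and *Sftpd* were 0.823 and 0.505 times as high, so for *Sftpb* and *Sftpd* the sums and the medians pointed in opposite directions. This rested on single cells, as the log2 ratios were 0.65 for *Sftpb* and 1.00 for *Sftpd* without the cell with the most reads of each gene. For *Sftpa1* the log2 ratio of the sums, 1.53, turned to -1.17 with an *Ager* limit of 2500 CPM, to -1.81 over all cells outside the AT2-like class and to -1.27 by rows. With that *Ager* limit the AT2-like cells of column 11 left their class, so its AT1-like cells counted as in a column without one. Of the 10 AT2 markers 7 were higher with an AT2-like cell in the column, with a median log2 ratio of 0.91 against 0.45 over all genes counted. Their sum, 122.9 against 125.1 CPM, included *Scd1* at 28.7 against 76.3 CPM. By rows 9 of the 10 were higher, with sums of 142.7 and 90.9 CPM and a median log2 ratio of 0.42 against 0.26 over all genes counted. For the columns, the median depth was 372692 against 564634 reads. In medians *Abca3* lay the other way, with 2.30 and 7.14 CPM, and exceeded 100 CPM in 14 of 48 cells (29.2%) and 4 of 16 cells (25%).

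By chip rows the *Sftpc* medians did not differ in this way over all AT1-like cells. AT1-like cells in rows with and without an AT2-like cell (37 and 27 cells) had *Sftpc* medians of 122.5 and 133.5 CPM, a ratio of 0.917, with 1.15 for the summed counts. The row medians were 2.73 and 1.18 CPM for *Slc34a2* and 2.22 and 0 CPM for *Lamp3*, higher in rows with an AT2-like cell. For *Sftpa1*, *Sftpb*, *Sftpd* and *Abca3* the ratios of medians lay between 0.616 and 0.990. In summed counts the log2 ratios by row were 2.23 for *Lamp3*, 2.05 for *Sftpd* and 0.99 for *Napsa*. Those of *Sftpb*, *Slc34a2*, *Sftpa1* and *Abca3* were -0.04, -0.10, -1.27 and -1.53. The same split by rows gave *Scgb1a1* medians of 83.2 and 401 CPM. The split by columns gave 146.8 CPM with and 357.3 CPM without an AT2-like cell, a ratio of 0.411. Both splits of these cells thus also differed for a gene that marks other cells. Within the columns without an AT2-like cell, however, *Sftpc* had a median of 95.8 CPM in the 10 AT1-like cells of rows with an AT2-like cell and of 29.7 CPM in the 6 others, with summed levels of 184 and 58.6 CPM. Within the columns with an AT2-like cell the medians by row were 128.8 CPM (27 cells) and 179.9 CPM (21 cells). In 13 columns that held both classes, the *Sftpc* reads of the AT2-like cells and the median *Sftpc* of the AT1-like cells had a Spearman rho of 0.890, and over all 19 columns with AT1-like cells it was 0.633. The points share the depth of the column and 1 chip, and no p is given.

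Columns did not all follow this order. The 5 columns with the most AT2-like *Sftpc* reads, at least 114051, had AT1-like medians from 212 to 313 CPM. Column 10, with 13433 such reads, had a median of 12.2 CPM. Columns without an AT2-like cell had medians from 13.3 to 216 CPM, the highest in column 4, which overlaps the columns with the most reads. When all cells outside the AT2-like class were summed (80 and 34 cells), the ratio was 0.426, the other way. Single cells weighed heavily in this sum. In columns without an AT2-like cell, the club-like cell of 7774 CPM (column 1, row 27) gave 16875 *Sftpc* reads. The basal-like cell of 4970 CPM (column 3, row 5) gave 3503, and all 16 AT1-like cells of those columns together 1291. The unnamed cell of 6694 CPM, in column 7 with AT2-like cells, gave 1195 reads. The ratio without these cells was not computed, so its direction is not firm.

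**Figure D4:**
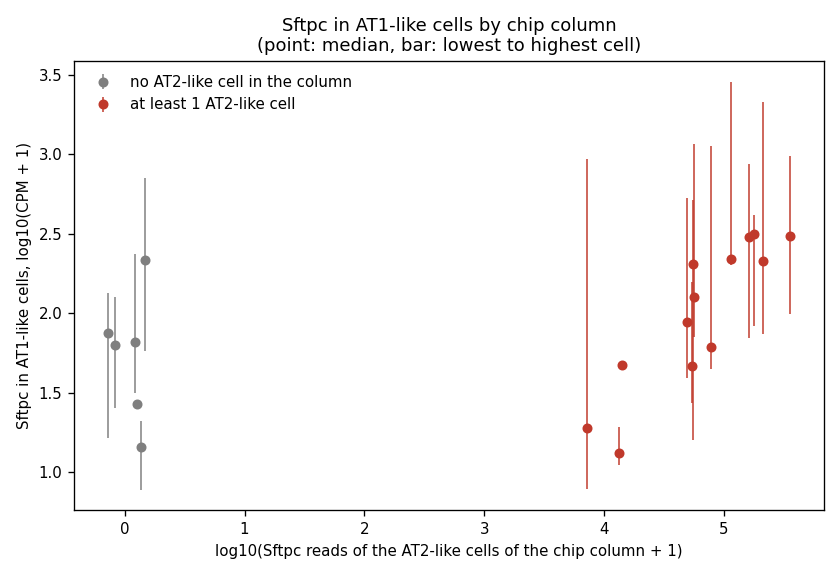
*Sftpc* in AT1-like cells of each of the 19 chip columns that hold any, as log10(CPM + 1), against the *Sftpc* reads of the AT2-like cells of the same column, as log10(reads + 1). Points are medians, bars run from the lowest to the highest cell, and grey points at the left are columns without an AT2-like cell, spread sideways to be seen, with medians from 13.3 to 216 CPM.

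In ciliated-like cells *Sftpc* was also higher with an AT2-like cell in the column, and so were many other genes. Its median was 214 CPM in the 12 ciliated-like cells of such columns and 16.3 CPM in the other 4. The summed counts differed 6.23-fold, where 51% of 8199 genes were at least 4-fold higher. The median log2 ratio was 2.14 over all genes and 1.07 over the 7 genes other than *Sftpc*. For comparison, the club gene *Scgb1a1* had a median of 323 CPM in the 25 AT1-like cells of columns with a club-like cell or the cell of both lists, and 46.7 CPM in the other 39. By rows its medians were 165 and 183 CPM. In AT2-like cells the *Scgb1a1* medians by column were 428 CPM (10 cells) and 15.7 CPM (17 cells). *Ager* went the other way by column, with a median of 660 CPM in the 25 AT2-like cells that shared a column with an AT1-like cell and of 1511 CPM in the other 2. By rows its medians were 852 CPM (20 cells) and 136.5 CPM (7 cells).

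Reads of each gene were then set against the *Sftpc* reads of the same class. In AT2-like cells there were 0.676 *Napsa*, 1.49 *Slc34a2* and 1.49 *Lamp3* reads per 100 *Sftpc* reads. AT1-like cells had 0.565, 2.17 and 3.24, the last 1.68 without 1 cell, and ciliated-like cells had 0.389, 1.56 and 0.974, from 4, 16 and 10 reads. Without 1 cell the ciliated-like ratios of *Slc34a2* and *Lamp3* were 1.03 and 0.437. In club-like cells the ratios were 0.886, 2.49 and 0.0206, and without the top cell of each gene those of *Napsa* and *Slc34a2* were 0.127 and 0.197, but 6.07 and 19.05 without the cell with the most *Sftpc*. In basal-like cells each was 0.109, from 4 reads, and 1.14 without 1 cell.

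The collectins, *Sftpb* and *Abca3* were set against *Sftpc* in the same way. *Sftpa1* had 19.7 reads per 100 *Sftpc* reads in AT2-like, 25.3 in AT1-like, 9.15 in ciliated-like and 117.9 in club-like cells. *Sftpb* had 8.39, 16.3, 15.1 and 105.4 in the same order, and *Sftpd* 5.85, 25.3, 60.2 and 39.4, where the ciliated-like value was 7.45 and the AT1-like value 15.1 without 1 cell. In club-like cells, however, 86.9% of the *Sftpc* reads came from the cell at column 1, row 27. Without it the club-like ratios were 852 for *Sftpa1*, 781 for *Sftpb* and 302 for *Sftpd*, whereas that of *Sftpb* was 52.7 without the cell with the most *Sftpb*. For *Abca3* the ratio was 0.407 in AT2-like and 94.6 in AT1-like cells, 233 times as much. This gap follows the level of *Sftpc*, whose limit makes the AT2-like class. *Abca3* itself was 516 CPM in AT2-like and 237 CPM in AT1-like cells. The ratio was 79.98 in the AT1-like cells of columns with an AT2-like cell and 168.2 in those of the other columns. The latter was 56.4 without the cell with the most *Abca3* and 344 without the cell with the most *Sftpc*. The source of these reads was not tested.

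**Figure D5:**
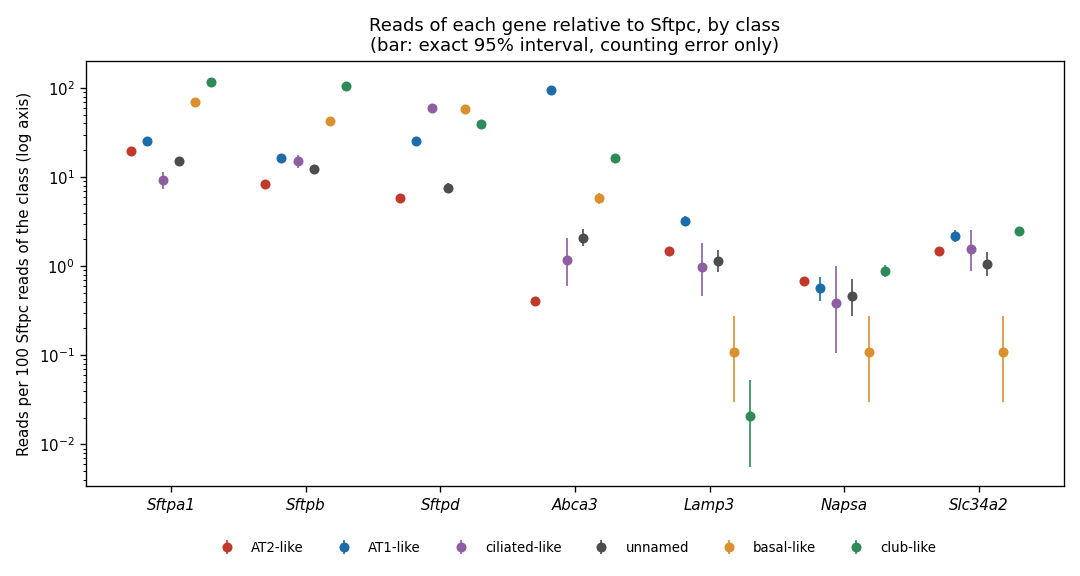
Reads of each gene per 100 *Sftpc* reads in the summed counts of 6 classes, on a log axis, with exact 95% intervals that cover counting error only. *Napsa* is at 0.676 in AT2-like and 0.565 in AT1-like cells, and *Slc34a2* at 1.49 (1.47 to 1.51) and 2.17 (1.85 to 2.53), intervals that do not overlap. *Lamp3* is at 1.49 and 3.24, *Sftpd* at 5.85 and 25.3, and *Abca3* at 0.407 and 94.6 in the same order. The limit on *Sftpc* makes the AT2-like class and so enters these ratios. *Abca3* itself was 516 CPM in AT2-like and 237 CPM in AT1-like cells.

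Other genes of surfactant production were read from lists of related genes, of which 47 of 50 were in the counts and 45 had enough reads to compare. At least 4-fold higher in AT2-like than in AT1-like cells were 18 of 45, and at least 4-fold lower 10, against 16.6% and 36.3% of all genes. Genes of lipid synthesis and transport gave 8 of 13 higher. *Scd1*, a fatty acid desaturase, was 6895 against 43.01 CPM, *Fasn*, the fatty acid synthase, 917 against 67.4 CPM, *Lpcat1*, which remodels phosphatidylcholine, 1347 against 199 CPM, and *Fabp5*, a fatty acid binding protein, 319 against 0.386 CPM. *Insig1*, *Srebf1*, *Acsl4* and *Acly* were the other 4. Several were low in many AT2-like cells, as the AT2-like medians were 0 CPM for *Insig1* and *Srebf1*, 1.47 CPM for *Acly* and 22.8 CPM for *Fasn*, and of the 18 genes higher over all lists 8 had a median of 0 in AT2-like cells. For *Fasn*, 1 AT1-like cell held 89.7% of the reads of its class.

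Lower by at least 4-fold in this list were *Prdx6*, a peroxiredoxin with phospholipase activity (605 against 5858 CPM), *Chpt1*, a choline phosphotransferase (26.8 against 307 CPM), and *Abca1*, a cholesterol exporter (25.1 against 255 CPM). *Elovl1* was 2.29-fold higher and *Pcyt1a* 0.852 times as high. The list thus held genes on both sides, with its largest level in AT1-like cells at *Prdx6*, which exceeded 100 CPM in 61 of 64 AT1-like and 12 of 27 AT2-like cells.

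Of the lysosomal proteases, *Ctsc* was 640.0 against 1.29 CPM (498-fold), and *Ctsh*, which takes part in the processing of surfactant proteins, was 852 against 314 CPM (2.72-fold). *Sfta2*, a secreted lung protein, was 1087 against 2.67 CPM. In club-like cells *Sfta2* was 125.9 CPM with 3 of 14 cells above 100 CPM.

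Among the genes of organelle traffic, several rested on few reads. Higher were *Rab38*, *Rab27a*, *Hps3*, *Hps4* and *Ap3b1*, and lower *Hps1*, *Hps5* and *Hps6*, of 14. Of the 253 *Hps4* reads in AT2-like cells 99.2% came from 1 cell, as did 96.9% of the 318 *Hps1* reads of AT1-like cells, so these ratios describe single cells. *Lamp1* and *Lamp2*, lysosomal membrane proteins, were 0.886 and 0.934 times as high.

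Among 7 genes of secretion, *Adora2b*, an adenosine receptor, was higher (23.4 against 4.15 CPM). *Snap23*, of the membrane fusion machinery, and *Anxa7*, an annexin, were lower, each with 2 reads in all AT2-like cells against 65.2 and 245 CPM in AT1-like cells. *Anxa7* exceeded 100 CPM in 14 of 64 AT1-like cells. *Vamp8* and *Adgrf5* were 0.480 and 1.44 times as high.

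Among transcription factors, *Etv5* (416 against 0.579 CPM) and *Cebpa* (56.7 against 0.225 CPM) were higher in AT2-like cells, and *Hopx*, an AT1 gene, was 81.9-fold lower. *Nkx2-1*, which is known to drive surfactant genes, was 268 against 219 CPM, a ratio of 1.23, and *Nfib* had a ratio of 0.257. In club-like cells *Cebpa* was 55.3 CPM, *Nkx2-1* 67.8 CPM and *Etv5* had 0 reads, which allows up to 0.273 CPM by a floor of 3 reads. *Cebpa* was thus near the AT2-like level in club-like cells, while *Etv5* was not read there.

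The genes nearest to 4 of the surfactant genes over all cells were found by Pearson r on log2(CPM + 10) among 9996 genes with reads in at least 10 cells. For *Sftpc* they were *Slc34a2* (0.893), *Sftpa1* (0.862), *Scd1* (0.842), *Cd74* (0.831), the MHC class II chaperone, and *Lamp3* (0.829). For *Slc34a2* they were *Sftpc* (0.893), *Lamp3* (0.881), *Cd74* (0.871), *Sftpa1* (0.870) and *Scd1* (0.856). For all 4 genes, these values include the gap between AT2-like cells, a class made by the limit on *Sftpc*, and the rest. Over the 27 AT2-like cells alone, *Sftpc* had r = 0.77 with *Sftpa1*, 0.39 with *Lamp3* and 0.27 with *Slc34a2*. The rho values were 0.66, 0.33 and -0.08 in the same order.

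The nearest genes of *Sftpb* and *Sftpd*, which also reached club-like cells, were partly the same. For *Sftpb* they were *Slc34a2* (0.850), the chemokine *Cxcl15* (0.849), *Scd1* (0.821), *Sftpc* (0.812) and *Sftpd* (0.805), and for *Sftpd* they were *Sftpa1* (0.828), *Slc34a2* (0.808), *Sftpb* (0.805), *Cxcl15* (0.792) and *Lyz2* (0.774). *Cxcl15* itself exceeded 100 CPM in 7 of 14 club-like cells.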

How the data were processed

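Libraries were made on a C1 mRNA Seq HT chip. Per the labels and methods, the authors used Trim Galore and FastQC, aligned to GRCm38 by HISAT2, assigned reads by featureCounts and deposited whole read counts per gene and cell, not normalized and without molecular identifiers. Strand setting, annotation and tool versions are not given in the sources used here. All cells were used and 0 columns were left out. Counts were summed per class and given as CPM, with exact Poisson intervals, exact binomial intervals for ratios and Clopper-Pearson intervals for shares, all at 95%. Ratios needed at least 10 reads in 1 of the classes, and 3 counts served as the floor where a class had 0. The 8 genes, the lists and the limits were chosen with earlier results of these data known, as were the named genes, which are the 8 members, *Ager* and *Scgb1a1*, related genes past 4-fold with up to 2 others per list, and the 5 nearest genes. Cells named by position in club-like cells, the comparison of column medians and the values without the club-like cells with the most *Sftpc* were chosen after values were seen. Alternatives changed class limits, cells, scaling (TMM, edgeR 4.0.16 in R 4.3.3), weighting and depth (90000 reads). The ratios were tested on simulated data. Other steps ran in Python 3.11.15 (scipy 1.17.1, numpy 2.4.6, matplotlib 3.10.9, pandas 2.3.3). RefSeq promoters matched 5 of the 8 genes. *Pgc* and *Ctss* were not analysed here, and 1 related gene is not reported here.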

Additional observations from a re-analysis of the deposited data

How the results depend on the processing

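All cells came from 1 mouse, so no value has a replicate error. No paired analysis was made, as no test was made and cells of 1 mouse are not replicates. Of the chip columns, 13 held both AT1-like and AT2-like cells. The count of the 7 other genes at least 4-fold higher in AT2-like than in AT1-like cells was 6 under all 10 alternatives of cells, limits, scaling and depth. The count of the 8 genes at least 4-fold higher in club-like than in AT1-like cells was 6, with *Sftpc* among them. It was 3 with an AT2-like limit of 4000 CPM and without the cell with the most reads of each gene. It was also 3 without the 2 club-like cells with the most *Sftpc*, a choice that by itself lowers *Sftpc*. It was 4 with markers above 200 CPM, and 5 as a mean over cells, at 90000 reads or with 8-fold. Log2 ratios of club-like to AT1-like cells changed sign to -2.39 for *Sftpc*, -1.57 for *Napsa* and -0.42 for *Slc34a2* and -0.22 for *Abca3* with the limit of 4000 CPM and without those 2 cells, which are the same cells, to 0.77 for *Lamp3* with a limit of 50000 CPM, to -0.18 and -0.24 for *Abca3* as a mean over cells and at 90000 reads, and for *Slc34a2* to -0.43 without its top cell and -0.78 with markers above 200 CPM. The column ratio of *Sftpc* in AT1-like cells, 2.15 in summed counts, was 1.52 with an *Ager* limit of 2500 CPM, 1.62 with an *Sftpc* limit of 4000 CPM, 3.63 with mitochondrial shares below 0.15, 2.74 as a mean over cells, 3.61 without the top cell, 2.84 at 90000 reads, 1.91 in columns 1 to 10, 11.8 in columns 11 to 20 (29 against 1 cell), 1.15 by rows and 0.426 over all cells outside the AT2-like class. Where class limits or cells changed, the columns were divided anew by the AT2-like cells left. The sides held 42 and 22 AT1-like cells with 2500 CPM of *Ager*, 53 and 11 with 4000 CPM of *Sftpc*, and 24 and 21 below 0.15. With 2500 CPM and below 0.15, some columns with AT2-like cells in the main classes thus counted as without. The direction of the value of 0.426 is not firm. The club-like cell at column 1, row 27 alone gave 16875 *Sftpc* reads on the side without an AT2-like cell. The genes at least 4-fold higher in AT2-like cells numbered 2073, and 3139 with no minimum of reads. TMM scaling shifted log2 ratios by 0.29 for AT2-like against AT1-like, 0.54 for club-like against AT1-like and 0.02 between columns. Of the alternative values of these counts, of the counts of related and nearest genes and of the column ratio, 40 stayed near the first value and 14 moved. Most values of the column ratio moved, and they make up most of the 14. A fall of the club-like count from 6 to 4 was held as near. The causes were not tested. Of the 20 nearest genes, 18 stayed with log2(CPM + 1) and 15 with Spearman rho.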
